A study of Homo sapiens with 28 samples.

Results

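The comparison described here is the addition of IL-13 to cells that also received vitamin D, measured by RNA sequencing in EPC2 cells. EPC2 is a human line of esophageal epithelial cells that has been immortalised. The control group received vitamin D at 100 nM and the other group received the same vitamin D with IL-13 at 100 ng/ml, both for 6 h, with 3 samples in each group. The authors' deposited table gives 1 RPKM value (reads scaled to transcript length and library size) for each group over 23533 genes, and 11334 genes that reached at least 1 RPKM in either group are described. Of these, 11320 had been tested by the authors, and 11028 reached 1 RPKM in both groups. The table bears a name that speaks of IL-13 against the combination, but its columns are headed as vitamin D and the combination. Its vitamin D column is identical to that of the untreated against vitamin D table for all 23533 genes. The wider series also holds untreated cells and cells with IL-13 alone, 3 RNA samples each, and single chromatin immunoprecipitation libraries of the same line. All samples come from this 1 line, and the labels do not say whether the samples of a group were separate cultures, so the authors' p-values may measure technical spread only.

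IL-13 is a cytokine of type 2 immunity. It binds a receptor made of IL4R and IL13RA1, whose JAK kinases phosphorylate STAT6, and STAT6 then enters the nucleus and binds DNA at paired TTC and GAA elements. In esophageal epithelium IL-13 is best known from eosinophilic esophagitis, where it induces CCL26 and CAPN14 and lowers genes of squamous differentiation. Vitamin D in its active form binds the nuclear receptor VDR, which pairs with RXR and induces genes such as CYP24A1 and CD14.

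To show elements that STAT proteins recognise, the 250 bases before the transcription start of a pair of genes that IL-13 raised are printed 5′ to 3′ from RefSeq (build GRCh38.p14). Capitals mark TTCNNNGAA or TTCNNNNGAA, the spacings that STAT proteins and STAT6 are known to bind. CISH, an inhibitor of cytokine signalling, lies on the minus strand and its window is chr3:50611775-50612024. CAPN14, a calpain protease of esophageal epithelium, lies on the minus strand and has 2 RefSeq starts, of which the window chr2:31217516-31217765 is shown.
CISH: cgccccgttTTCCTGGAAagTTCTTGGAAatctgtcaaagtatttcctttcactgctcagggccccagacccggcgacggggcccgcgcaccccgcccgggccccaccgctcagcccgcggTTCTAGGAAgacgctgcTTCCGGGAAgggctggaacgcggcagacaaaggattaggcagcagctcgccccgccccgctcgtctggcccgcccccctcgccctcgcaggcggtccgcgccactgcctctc
CAPN14: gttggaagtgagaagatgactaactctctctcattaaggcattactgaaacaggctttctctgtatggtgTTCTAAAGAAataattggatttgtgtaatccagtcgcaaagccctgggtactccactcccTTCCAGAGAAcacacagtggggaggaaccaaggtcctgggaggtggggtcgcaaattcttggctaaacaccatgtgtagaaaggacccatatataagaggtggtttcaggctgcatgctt
The CISH window held 4 copies of TTCNNNGAA and the CAPN14 window 2 copies of TTCNNNNGAA, which reads the same way on both strands. The window at the other CAPN14 start held 0 of either. Over all 35116 RefSeq windows of this length, 6.57% held TTCNNNGAA and 5.38% held TTCNNNNGAA. Among genes called and at least 2-fold higher with IL-13, 14 of the 92 with a RefSeq window held either spacing (15.2%), beside 6 of 37 genes at least 2-fold lower (16.2%) and 12.1% of 9014 tested genes. By spacing, TTCNNNGAA was held by 8.7% of the higher genes, 16.2% of the lower and 7.14% of tested genes, and TTCNNNNGAA by 7.61%, 0 of 37 and 5.56%, differences that were not tested. A match describes letters only.

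EPC2 cells held the markers of squamous epithelium in both groups. The basal keratin gene KRT5 was at 9935 RPKM with vitamin D and 9265 RPKM with both per the authors' deposited table, and 11 of 12 epithelial markers reached 1 RPKM, with a summed level of 33797 RPKM with vitamin D and 33846 RPKM with both. Of 14 leukocyte markers only CD68 reached 1 RPKM and 7, PTPRC among them, were listed at 0 in both groups. Of 14 fibroblast markers 4 reached 1 RPKM (ACTA2, COL1A1, FN1 and VIM), and of 9 endothelial markers only VWF, at 1.18 and 3.15 RPKM. The fibroblast markers summed to 813 RPKM with vitamin D and 857 RPKM with both, nearly all of it from FN1 and VIM and with THY1 listed at 0, and their part in the results was not tested. The summed RPKM over all genes was 391648 in the vitamin D group and 377254 in the combined group. Read depth cannot be had from RPKM, so the precision of each value is unknown, and the spread within a group is known only through the authors' p-values.

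IL-13 changed many genes slightly and few genes strongly. The authors' deposited table called 2259 genes higher (20.0% of those tested) and 2256 lower (19.9%) at an adjusted p under 0.05, in all 4515 genes (39.9%). Of these, 3903 moved by less than 1.5-fold. In such bulk samples, fewer cells of a kind and less RNA per cell cannot be told apart. Genes at least 2-fold higher numbered 122 (1.08%) and genes at least 2-fold lower 53 (0.468%) in the authors' deposited table. At the 4-fold level 34 genes were higher and 3 lower, the last being DHRS9, ENDOU and IVL. The median log2 fold change over tested genes in the authors' deposited table was 0.01, with -0.46 at the 5th percentile and 0.38 at the 95th percentile. Abundant genes leaned downward. Among the 528 tested genes at 100 RPKM or more, 14.2% were called higher and 49.4% lower in the authors' deposited table, against 17.6% and 13.6% of the 3372 genes between 1 and 5 RPKM. Just inside the 1 RPKM limit lay GYG2P1, MORN1 and VAMP1, with log2 fold changes of -0.13, 0.33 and 0.03 in the authors' deposited table, and just outside it MEGF6, FAM86JP and KHDRBS3, with -0.09, 0.44 and 0.21. Some 306 genes reached 1 RPKM in only one group, 169 with both treatments and 137 with vitamin D, and the authors' deposited table called 74 of them higher and 87 lower. These genes passed the filter only through the group where their level was higher, so their calls partly restate the filter and are no separate result. Of the 12199 genes under 1 RPKM in both groups only 3539 had been tested by the authors. Among those 3539, another 173 were called higher and 248 lower.

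**Figure D1:**
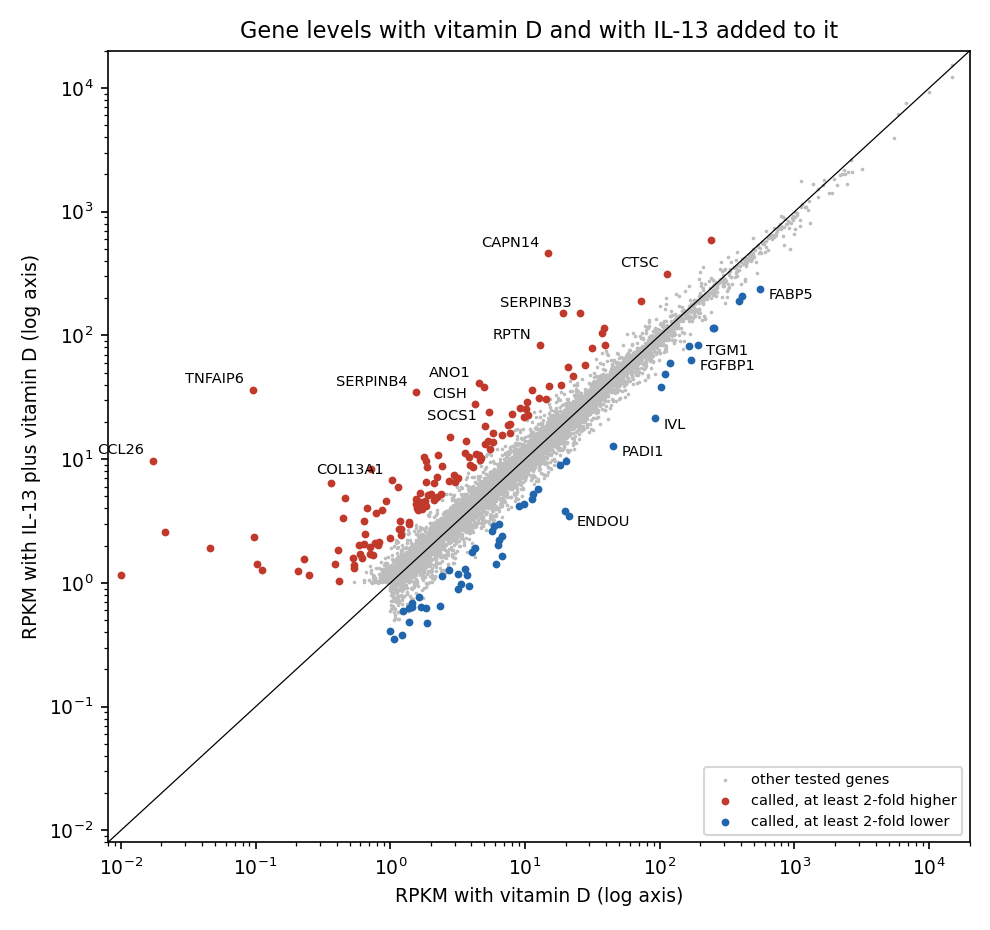
RPKM with vitamin D (horizontal axis) against RPKM with IL-13 plus vitamin D (vertical axis), both on log axes with values under 0.01 drawn at 0.01, for each tested gene except 16 whose names had turned into dates. Red points are called and at least 2-fold higher and blue points called and at least 2-fold lower in the authors' deposited table. CAPN14 stands far above the diagonal at 14.8 and 463 RPKM, and IVL below it at 92.6 and 21.5 RPKM.

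Known IL-13 genes of esophageal epithelium led the rises. Of 14 members of that list with at least 1 RPKM, 13 rose, 0 fell and SOCS3 was not called (log2 0.22) in the authors' deposited table, with a list median of 2.42 beside 0.01 over all tested genes. The list holds genes known to respond to IL-13 and was chosen with these results known, so its direction is no independent evidence. CAPN14 (chromosome 2, 31395922 to 31440411, hg19) went from 14.8 RPKM with vitamin D to 463 RPKM with both in the authors' deposited table, a log2 fold change of 4.87 (SE at most 0.13, adjusted p listed as 0). It was the gene with the largest called rise by the deposited log2 fold change. By the log2 ratio of RPKM with 0.1 added to each, CCL26 (6.39) and TNFAIP6 (7.55) lay above CAPN14 (4.95). SERPINB4, which encodes a protease inhibitor, went from 1.56 to 34.7 RPKM (log2 4.26) and SERPINB3 from 25.6 to 152 RPKM (log2 2.50) in the authors' deposited table, both with an adjusted p listed as 0. The pair are adjacent near-identical paralogs on chromosome 18, so the split of reads between them is uncertain. Their relative SERPINB13 rose from 20.7 to 55.5 RPKM (log2 1.36) in the authors' deposited table.

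Other raised genes encoded a chemokine, matrix and channel proteins and enzymes. CCL26, the chemokine that attracts eosinophils, was listed at 0.0173 RPKM with vitamin D and 9.73 RPKM with both in the authors' deposited table (log2 4.47, adjusted p = 1.23e-112). Its size is uncertain, since the log2 ratio of the RPKM values with 0.1 added to each was 6.39. TNC, the matrix glycoprotein tenascin C, rose from 19 to 153 RPKM (log2 2.94) and the chloride channel gene ANO1 from 4.53 to 41 RPKM (log2 3.10) in the authors' deposited table. TNFAIP6, whose product binds hyaluronan, was at 0.0949 RPKM with vitamin D and 36.5 RPKM with both, while the authors' deposited table lists its log2 fold change as only 1.32 where the RPKM ratio gives 7.55. Values so far apart leave its size unsettled, and only its direction is used. HAS3, a hyaluronan synthase, rose from 9.87 to 21.8 RPKM and the hyaluronan receptor CD44 from 82.9 to 134 RPKM per the authors' deposited table. Cathepsin C (CTSC) rose from 113 to 316 RPKM, carbonic anhydrase 2 (CA2) from 241 to 586 RPKM, LTA4H, the leukotriene A4 hydrolase, from 73.1 to 189.9 RPKM, and the dual oxidase maturation factor DUOXA1 from 37.3 to 104 RPKM per the authors' deposited table.

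Among genes of the cytokine's own pathway, the inhibitors CISH and SOCS1 had the largest rises. CISH rose from 4.24 to 27.8 RPKM (log2 2.60, adjusted p = 2.11e-288) and SOCS1 from 5.04 to 18.4 RPKM (log2 1.76, adjusted p = 3.31e-100) in the authors' deposited table. They were the only members at least 2-fold higher among 16 inhibitors of JAK-STAT signalling, of which 4 rose and 2 fell (median 0.02). Among 13 receptors and signalling components 2 rose, 3 fell and 8 did not pass (median -0.06), and no called change reached 2-fold. The called members of these lists, 6 of 16 and 5 of 13, lay near the 39.9% over all tested genes. In the authors' deposited table STAT3 was at 25.4 and 30.3 RPKM (log2 0.22) and JAK2 at 4.25 and 5.23 (0.25), STAT6 at 26.9 and 24.5 (-0.18) and IL4R at 60.8 and 52.1 (-0.26). The receptor chain IL13RA1 was at 24.2 and 23.8 RPKM (adjusted p = 0.409) and the decoy receptor IL13RA2, under 1 RPKM in both groups, was at 0.429 and 0.717 RPKM (adjusted p = 0.0686) in the authors' deposited table.

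Genes of the vitamin D response were lowered more often than raised. Of 26 VDR target genes at 1 RPKM or more, 7 rose, 15 fell and 4 were not called in the authors' deposited table, with a median log2 of -0.22. Over all tested genes 20.0% were called higher and 19.9% lower. Some of the lowered members, CYP24A1 and SERPINB1 among them, were at 100 RPKM or more, where 49.4% of tested genes were called lower. CYP24A1, whose enzyme degrades vitamin D, was at 560.5 RPKM with vitamin D and 463 RPKM with both (log2 -0.31, adjusted p = 4.01e-17) in the authors' deposited table. SERPINB1, a protease inhibitor, went from 407 to 207 RPKM (log2 -1.01), the kallikrein KLK6 from 31.1 to 17.6 RPKM (-0.85) and the lipolysis inhibitor G0S2 from 81.4 to 47.6 RPKM (-0.80) per the authors' deposited table. Against these, CD14, a co-receptor for bacterial lipopolysaccharide, rose from 132 to 216 RPKM (log2 0.65), VDR itself from 7.62 to 9.74 RPKM (0.31) and HBEGF, an EGF receptor ligand, from 12 to 21.9 RPKM (0.82) per the authors' deposited table. With vitamin D alone the authors' deposited table of untreated against vitamin D, which shares the vitamin D libraries, gives 9.92 for CYP24A1, 2.71 for SERPINB1, 5.57 for CD14, 3.18 for KLK6 and 1.04 for G0S2. Levels with both treatments thus remained above the untreated 0.476, 64, 2.62, 3.4 and 40.8 RPKM of the same genes. CYP27B1, whose enzyme makes active vitamin D, rose from 2.24 to 4.94 RPKM (log2 1.05) in the authors' deposited table.

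Genes of squamous differentiation fell together. Of 29 cornified envelope and S100-fused genes at 1 RPKM or more, 24 fell and 2 rose in the authors' deposited table, with a median log2 of -0.59. The shares over all tested genes were 19.9% lower and 20.0% higher. Some members, TGM1 among them, were at 100 RPKM or more, a class in which 49.4% of tested genes were called lower. IVL, which encodes the envelope precursor involucrin (chromosome 1, 152881039 to 152884362, hg19), fell from 92.6 to 21.5 RPKM (log2 -2.11, adjusted p = 8.76e-303) and ENDOU, an endoribonuclease of differentiated squamous cells, from 21.1 to 3.49 RPKM (log2 -2.58, adjusted p listed as 0) in the authors' deposited table. Of the transglutaminases in this list, enzymes that cross-link the envelope, TGM1 fell from 192 to 84.5 RPKM and TGM5 from 3.37 to 0.98 RPKM per the authors' deposited table. TGM3 did not pass, at 8.58 and 8.06 RPKM per the authors' deposited table (log2 -0.12, adjusted p = 0.129). CALML5, a calcium-binding protein of late differentiation, fell from 103 to 38.6 RPKM, and PADI1, which converts arginine to citrulline in differentiating keratinocytes, from 45 to 12.8 RPKM per the authors' deposited table. The 2 members that rose were RPTN, the S100-fused protein repetin, from 12.9 to 84 RPKM (log2 2.62), and LCE3D (log2 0.20), named after its value was seen, in the authors' deposited table. FLG, the filaggrin gene, lay under 1 RPKM in both groups, at 0.156 and 0.123 RPKM per the authors' deposited table (adjusted p = 0.101).

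Most suprabasal keratin and S100 genes fell. Of 7 suprabasal keratin genes 6 fell and 1 rose (median -0.98). KRT13, the keratin of upper esophageal layers, fell from 254 to 114 RPKM (log2 -1.18), KRT1 from 9.87 to 4.35 (-1.19), KRT10 from 41.4 to 21.3 (-0.98) and KRT80 from 116 to 59.3 RPKM per the authors' deposited table. KRT4, the partner of KRT13, was the exception, at 242 and 293 RPKM (log2 0.24) in the authors' deposited table. Of 11 basal and activation keratin genes 0 rose and 7 fell, with a median of -0.14. The 4 that were not called, KRT14, KRT16, KRT6A and KRT8, had log2 fold changes of 0.04, 0.13, 0.01 and 0.10 in the authors' deposited table. Of 14 S100 genes 0 rose and 12 fell (median -0.47), with S100A8 at 3171 and 2207 RPKM and S100A6 at 1314 and 818 RPKM per the authors' deposited table. Many of these genes are abundant, a class in which 49.4% of tested genes were called lower, beside 19.9% over all tested genes.

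Enzymes of barrier lipids, retinoids and proteolysis fell more often than they rose, beside 19.9% called lower and 20.0% called higher over all tested genes. Of 21 lipid mediator and barrier lipid genes 15 fell and 4 rose (median -0.40). Among them were PLA2G4D, a cytosolic phospholipase (1.87 to 0.471 RPKM), CYP4F22, an omega-hydroxylase for barrier ceramides (1.85 to 0.632), and the lipoxygenase ALOX12B (20.2 to 9.75) in the authors' deposited table. The lipoxygenase ALOX15B moved the other way, from 3.93 to 8.99 RPKM (log2 1.13) in the authors' deposited table. DHRS9, a retinol-oxidising dehydrogenase, fell from 19.9 to 3.79 RPKM (log2 -2.31, adjusted p = 1.58e-198) and SDR9C7 from 6.26 to 2.04 RPKM, while LRAT, which esterifies retinol, rose from 0.584 to 2.01 RPKM per the authors' deposited table. Of 15 retinoid genes 5 rose and 8 fell. Of 35 proteases 5 rose and 23 fell (median -0.30), and the falls included KLK13 (16.4 to 9.05 RPKM) and the plasminogen activator PLAT (1.46 to 0.642 RPKM) in the authors' deposited table. Among other secreted or cytosolic products, the fatty acid binding protein FABP5 fell from 557 to 238 RPKM, FGFBP1, which releases fibroblast growth factors, from 171 to 63.4 RPKM, and the glycolipid transfer protein GLTP from 387 to 189 RPKM per the authors' deposited table.

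Lists of regulators and other pathways had medians between -0.18 and -0.12. Shares over all tested genes were 20.0% called higher and 19.9% called lower. SOX2, a transcription factor of esophageal progenitors, rose from 2.22 to 7.15 RPKM (log2 1.57) and TP63, the factor of basal squamous cells, from 37.6 to 58.3 RPKM (0.59), while GRHL1 fell from 44.8 to 29.7 RPKM (-0.63) and OVOL2 from 5.51 to 3 RPKM (-0.86) per the authors' deposited table. Of 25 squamous transcription factors 6 rose and 12 fell (median -0.12). The immediate early list had 2 of 33 higher and 15 lower (median -0.14), led by FOS at 13.8 and 7.04 RPKM and the phosphatase gene DUSP1 at 29.7 and 16.5 RPKM per the authors' deposited table. Interferon response genes had 4 of 39 higher and 18 lower (median -0.18), with OASL at 8.29 and 5.32 RPKM and the sensor IFIH1 at 14.7 and 21.5 RPKM per the authors' deposited table. Of 22 NF-kappaB genes 1 was called higher, REL, and 11 lower (median -0.13). Cholesterol and fatty acid synthesis had 6 of 32 higher and 18 lower (median -0.12) in the authors' deposited table. Rises in this list and among squamous transcription factors were near the share over all tested genes.

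Among TGF-beta genes 5 of 23 rose and 11 fell, with THBS1, the TGF-beta activator thrombospondin 1, at 38.4 and 116 RPKM, SMAD3, a signal transducer, at 11.5 and 5.26 RPKM and ID1, a target of BMP signalling, at 303 and 183 RPKM per the authors' deposited table. Of 10 EGF receptor family genes HBEGF alone rose and 6 fell, with ERBB2 at 50.3 and 31.3 RPKM per the authors' deposited table. Cell adhesion genes were called in both directions, beside 20.0% higher and 19.9% lower over all tested genes. In 12 desmosome genes 3 rose and 5 fell, with the cadherin DSC3 at 101 and 174 RPKM and DSG1 at 3.68 and 2.98 RPKM, and in 25 junction genes 7 rose and 7 fell, with CDH26 at 0.228 and 1.56 RPKM and the claudin CLDN7 at 89.7 and 61.6 RPKM per the authors' deposited table. Of 24 cell cycle genes 4 rose and 8 fell, and of 9 chemokine genes 2 rose and 1 fell, so that the rises in both lists were near the 20.0% over all tested genes.

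**Figure D2:**
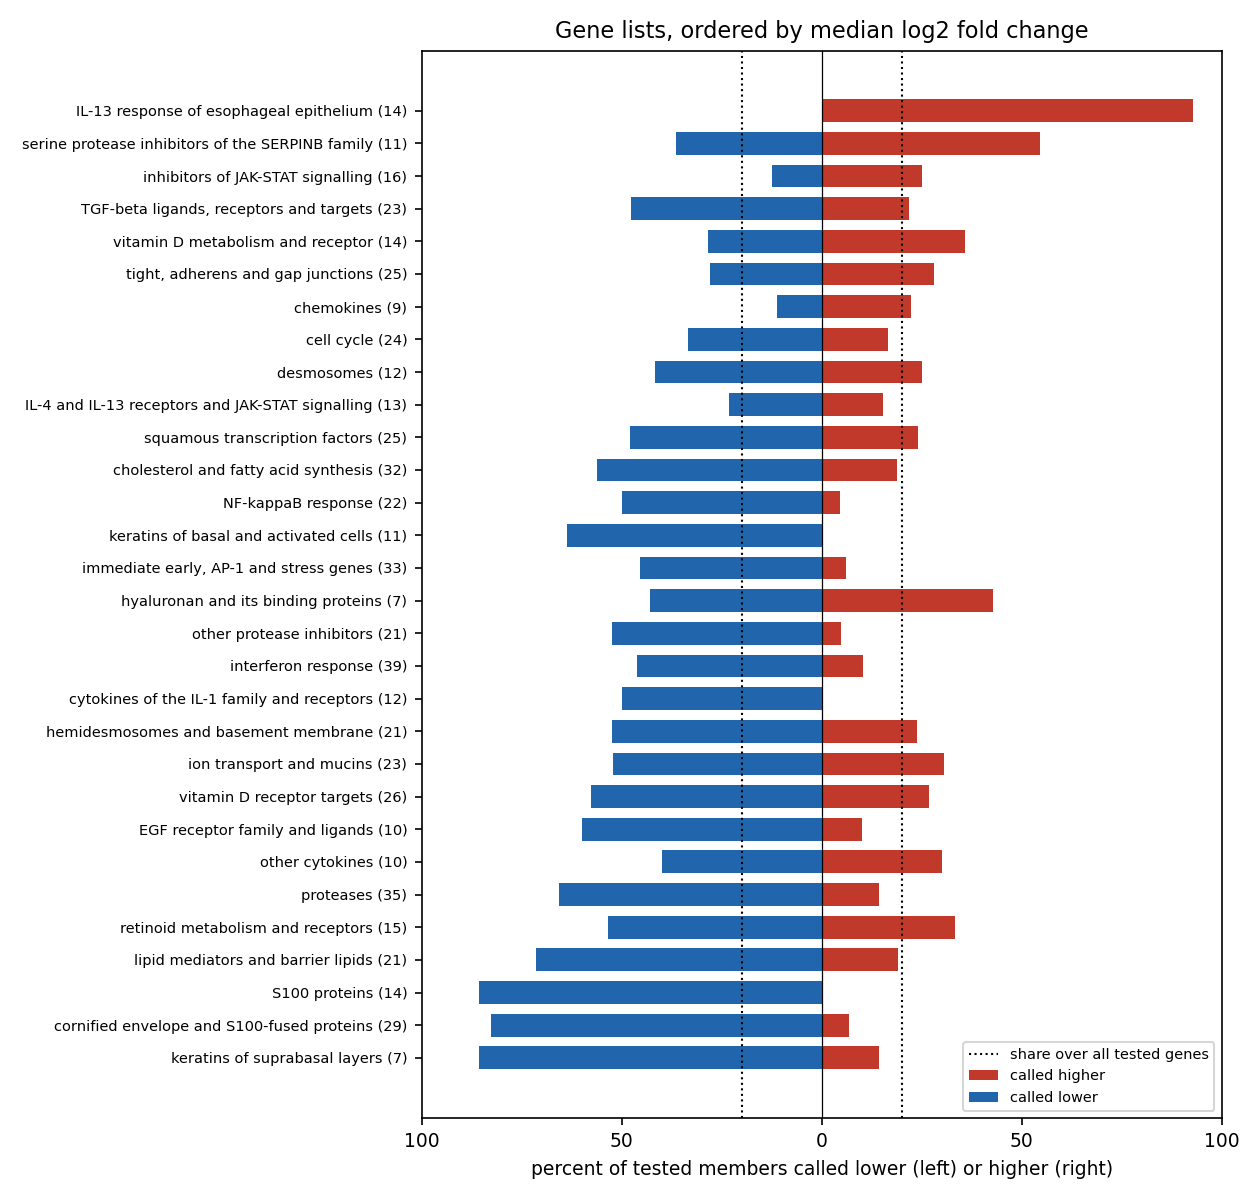
Percent of each list's tested members called higher (red, right) or lower (blue, left) by the authors' adjusted p under 0.05, with the number tested in brackets and dotted lines at the shares over all tested genes, 20.0% higher and 19.9% lower. The IL-13 response list is at the top with 13 of 14 higher, and the suprabasal keratins at the bottom with 6 of 7 lower.

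The IL-13 response in the presence of vitamin D was set beside that of IL-13 alone against untreated cells, which shares no library with it. IL-13 alone called 32.0% of 11400 genes, 15.2% higher and 16.8% lower, in the authors' deposited table. Over the 11316 genes tested in both tables, log2 fold changes had a Pearson r of 0.881 and a Spearman rho of 0.785, a description across genes, which are not independent replicates. Of the 2258 genes called higher here 1275 were called higher with IL-13 alone (56.5%, and 74.2% of the 1719 called there), and of the 2256 called lower 1528 were called lower there (67.7%, and 80.5% of 1897). Of 121 genes at least 2-fold higher here and tested in both, 120 were called higher with IL-13 alone, the exception being DPF3. Of the 53 at least 2-fold lower 50 were called lower there, the exceptions being CYTH4, IGFL3 and PRRX2. In all, 127 of these 174 genes had a larger absolute log2 fold change with vitamin D than without, genes having been chosen here for a large change with vitamin D.

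The difference of the IL-13 effects was then tested gene by gene with a z test on the authors' log2 fold changes, with standard errors derived from the authors' p-values as if these came from a two-sided normal test. Of 11310 genes 363 passed an adjusted p of 0.05 (3.21%), 210 with a higher effect in the presence of vitamin D (1.86%) and 153 with a lower one (1.35%), and 1421 had an unadjusted p under 0.05. Higher and lower here compare signed log2 fold changes, so a smaller fall counts as higher and a larger fall as lower. The median absolute difference of called genes was 0.35 and 14 reached 1 on the log2 scale. The effect had the same sign and was called in both settings for 199 genes, of which 153 had the larger effect with vitamin D and 46 the smaller. It was called only with vitamin D for 110 genes and only without for 45. Genes entered the test only if they reached 1 RPKM in the vitamin D or the combined group. That filter can favour larger or sole effects with vitamin D in these counts, and its part was not tested. CAPN14 (difference -0.21, adjusted p = 0.739), TNC (0.04, adjusted p = 0.93), CISH (0.11, adjusted p = 0.722), IVL (-0.15, adjusted p = 0.449) and DHRS9 (-0.20, adjusted p = 0.729) did not pass this z test on the authors' values, which does not show that their effects were equal.

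HBEGF changed direction. Its level was 8.05 RPKM in untreated cells, 5.64 with IL-13 alone, 12 with vitamin D alone and 21.9 with both in the authors' deposited tables, so that IL-13 lowered it alone (log2 -0.51) and raised it with vitamin D (0.82), a difference of 1.33 ± 0.09 (SE, adjusted p = 1.07e-45 by the z test). COL13A1, a transmembrane collagen, was at 0.108 RPKM untreated, 0.344 with IL-13 alone, 1.03 with vitamin D alone and 6.79 with both in the authors' deposited tables, a difference of 1.61 ± 0.22 (SE, adjusted p = 3.04e-11 by the z test). The plain RPKM ratios give a difference of 1.06 for it. TGM2, tissue transglutaminase, was at 6.56, 14.6, 2.77 and 15 RPKM in the same order in the authors' deposited tables, so that both groups with IL-13 lay above the untreated level and vitamin D alone lay below it (difference 1.27, adjusted p = 3.08e-46 by the z test). SOX2 followed a related order at 10.5, 15.6, 2.22 and 7.15 RPKM (difference 1.03, adjusted p = 4.33e-20 by the z test), but with both treatments it stayed below the untreated level in the authors' deposited tables. CEACAM6, a cell adhesion glycoprotein, fell with IL-13 alone, from 7.95 to 3.91 RPKM, and was at 16.3 and 17.5 RPKM in the vitamin D groups of the authors' deposited tables (difference 1.06, adjusted p = 8.41e-28 by the z test).

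Negative differences included several genes whose level was higher with vitamin D alone than in untreated cells. Such a difference can be a larger fall with vitamin D, as for BMP6 (log2 -0.75 with IL-13 alone, -1.64 with vitamin D present). PRRX2, a homeobox gene, was at 0.218 RPKM untreated, 0.293 with IL-13 alone, 1.69 with vitamin D alone and 0.639 with both in the authors' deposited tables (difference -1.35, adjusted p = 2.61e-05 by the z test). CYTH4 at 0.0715, 0.0243, 1.22 and 0.382 RPKM, BMP6, a bone morphogenetic protein, at 0.884, 0.473, 3.71 and 1.15 RPKM and CILP, a cartilage matrix protein, at 2.31, 2.35, 12 and 6.63 RPKM were given in the same sequence of groups by the authors' deposited tables. In each of these genes the level was highest with vitamin D alone and next highest with both. PRRX2 and CYTH4 passed the 1 RPKM filter only through the vitamin D group. All were chosen for large negative differences, which favours such an order, so the order is no separate evidence. The called difference of CYTH4 (-1.15) rests on a deposited log2 of -0.33 for IL-13 alone, at levels near 0, where its RPKM values give -1.56 alone and -1.68 with vitamin D, a difference of -0.12. For IGFL3 likewise the deposited values give -0.93 and the RPKM ratios -0.33, so the difference of effect is unsettled for both genes. The keratin pseudogenes KRT16P2 and KRT16P3 had differences of -1.10 and -1.12, but they share sequence with KRT16 and other copies, so their counts are uncertain. Of genes named for their place in the IL-13 and vitamin D responses, SERPINB3 had an effect higher by 0.68 with vitamin D and SERPINB4 a difference of -0.55 (adjusted p = 0.0413 by the z test on the authors' values), and the split of reads between these paralogs is uncertain. The falls of KRT10 (-1.58 alone, -0.98 here) and DSG1 (-0.98 alone, -0.33 here) were smaller with vitamin D, with differences of 0.60 and 0.65 by the z test, and both genes were lower with vitamin D alone, by -1.25 and -2.08 in the authors' deposited table.

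**Figure D3:**
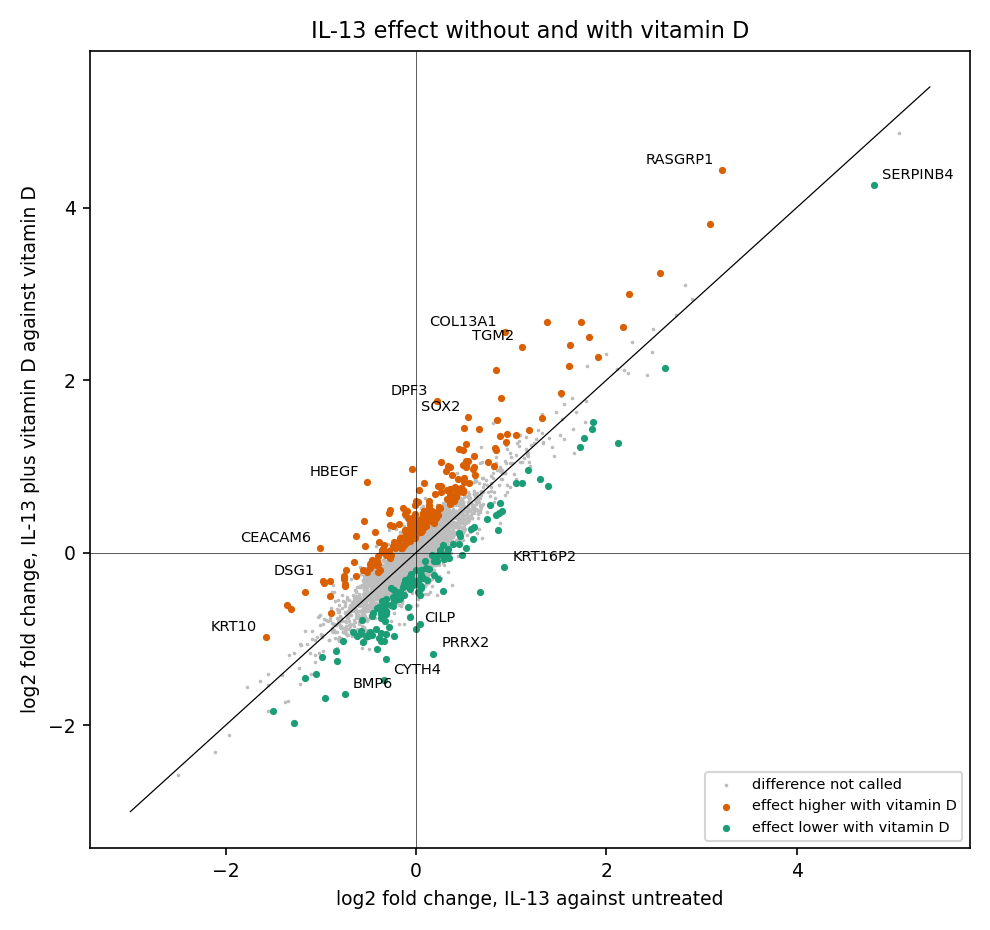
Authors' log2 fold change of IL-13 without vitamin D (horizontal axis) against that with vitamin D (vertical axis), for genes in the z test except those whose names had turned into dates, with the diagonal of equal effects. Orange points have a called positive difference and green points a called negative one, among them HBEGF at -0.51 and 0.82 and PRRX2 at 0.18 and -1.17.

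**Figure D4:**
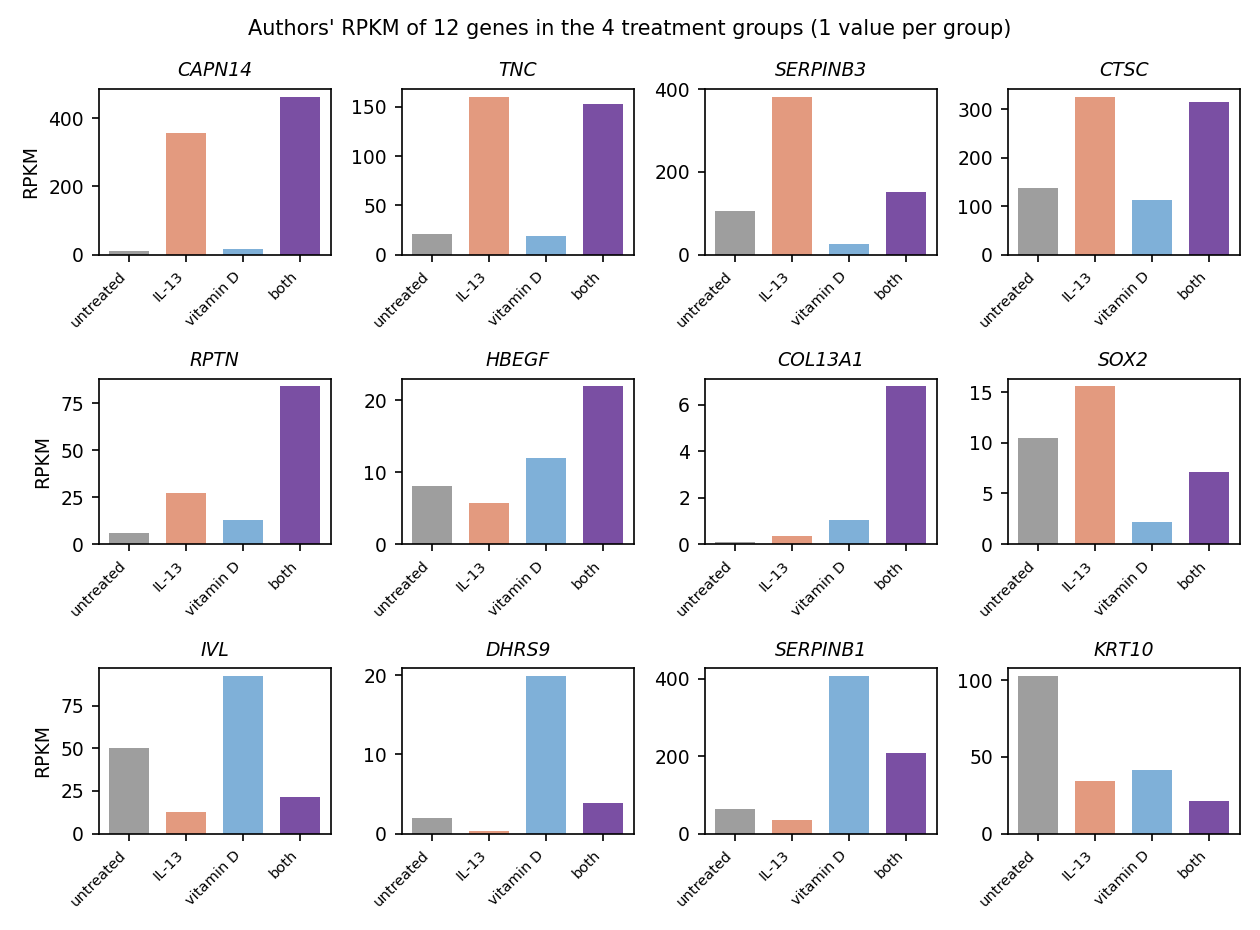
Bars give the authors' RPKM of 12 genes in the untreated, IL-13, vitamin D and combined groups, 1 value per group and no error. CAPN14 is high in both IL-13 groups (358 and 463 RPKM), IVL is lower in each IL-13 group than in its control, and COL13A1 is highest with both (6.79 RPKM).

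Binding of STAT6 was profiled in a library with IL-13 and in an untreated library, both without vitamin D, and set beside the genes as an independent readout with no test. Near genes at least 2-fold higher, 34 of 122 had a STAT6 summit within 10 kb of the start in the IL-13 library (27.9%, 95% exact interval 20.1 to 36.7), against 2 of 53 at least 2-fold lower (3.77%, 0.46 to 13) and 4.68% of all tested genes. In the untreated library the shares were 0.82%, 0% and 0.274%. These intervals cover counting error over genes only, with 1 library. With IL-13 the STAT6 share was 9.34% over all genes called higher, 4.34% over those called lower and 3.25% over tested genes that were not called. Where a gene had several summits, the one of highest fold enrichment within 10 kb is given. CAPN14 had a STAT6 summit 81 bases before its start (region chr2:31440418-31440654, hg19, authors' fold enrichment 4.2), and SOCS1 one 652 bases before (chr16:11350124-11351387, hg19, 15.3). The only STAT6 summit within 10 kb of the CISH start lay 9647 bases after it, past the end of the gene (region chr3:50638015-50639748, hg19), while the higher summit of that region lay beyond 10 kb. The CISH promoter window printed above held 4 copies of TTCNNNGAA and 0 of TTCNNNNGAA. SERPINB4 and SERPINB3 had intronic STAT6 summits 3058 and 3158 bases after their starts. VDR summits of the vitamin D library showed the other order, within 10 kb of 20.5% of genes at least 2-fold higher, 37.7% of genes at least 2-fold lower and 18.2% of all tested genes. Over all genes called lower the VDR share was 28.6%, over those called higher 15.8% and over tested genes that were not called 15.6%. Both factors lay within 10 kb of 8 genes at least 2-fold higher (6.56%) and 2 at least 2-fold lower (3.77%). The share over all tested genes was 1.48%.

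Histone marks were profiled in the same treatments, 1 library each, so intervals of their medians cover the spread over genes and no replicate error. At promoters (highest fold enrichment within 2 kb of the start, centred on the median of all genes), the median log2 ratio of both treatments over vitamin D for H3K27ac, a mark of active regulatory regions, was 0.25 for genes at least 2-fold higher and -0.28 for genes at least 2-fold lower. It was above 0 at 80.7% of the 83 raised genes and 14.8% of the 27 lowered genes with a region in both libraries, and at 49.8% of all tested genes. H3K9ac, another active promoter mark, had medians of 0.17 and -0.15 and H3K4me3, the mark of active starts, 0.11 and -0.24. The 95% intervals of the H3K4me3 median at lowered genes (-0.45 to 0.06) and of the H3K9ac medians at raised genes (0.00 to 0.22) and lowered genes (-0.19 to -0.00) reached 0. The uncentred median over all genes was -0.16 for H3K27ac, 0.00 for H3K9ac and -0.08 for H3K4me3, so that without centring the H3K27ac median of raised genes was 0.09. At CISH the fold enrichment of H3K27ac was 13.9 with vitamin D and 19.2 with both, and at SOCS1 16.8 and 19.8, while at CA2, which also rose in RNA, it was 24.3 and 18.5. At CAPN14 an H3K27ac region was called only with both treatments (5.75) and an H3K9ac region only with vitamin D (3.4). At TGM1 the H3K27ac fold enrichment was 14.4 with vitamin D and 11.5 with both.

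**Figure D5:**
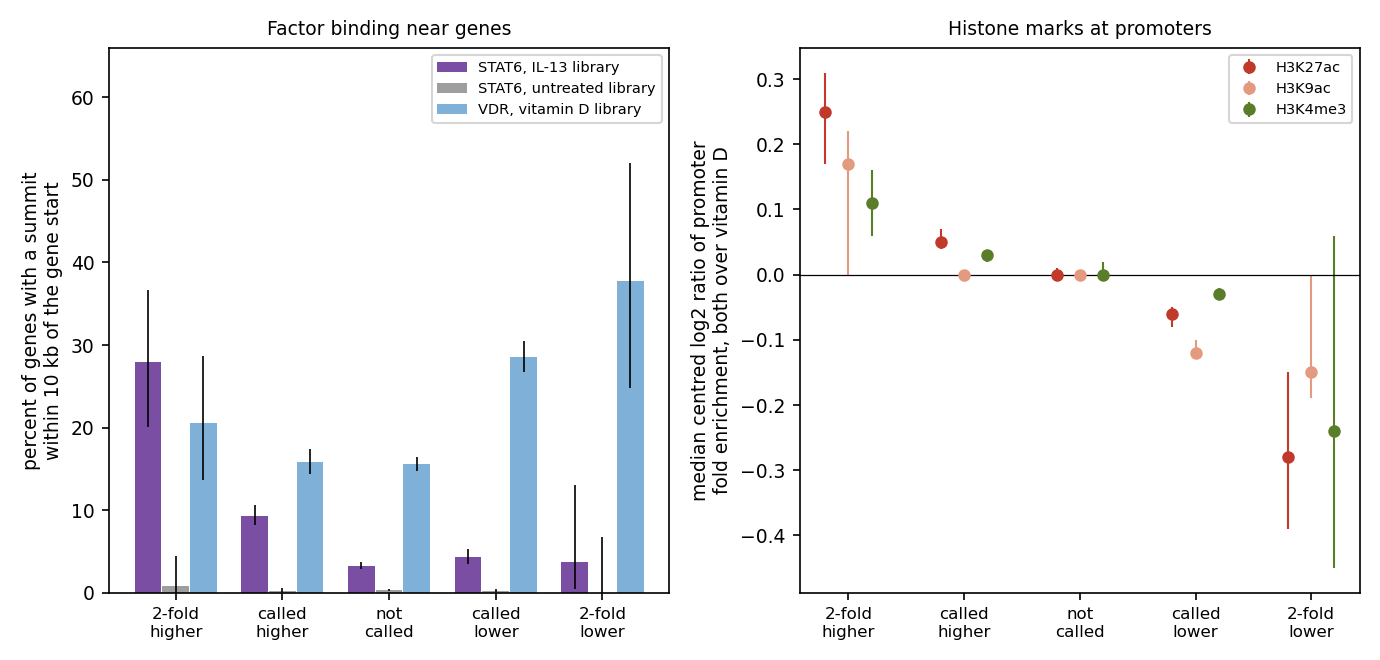
Left, percent of genes in each RNA class with a STAT6 or VDR summit within 10 kb of the start, bars with 95% exact binomial intervals. Right, median centred log2 ratio of promoter fold enrichment for each mark with 95% intervals from order statistics. The STAT6 share with IL-13 is 27.9% for the 2-fold higher genes and 9.34% for all called higher. It is 3.25% for genes not called, 4.34% for all called lower and 3.77% for the 2-fold lower genes. The VDR share is highest for the 2-fold lower genes at 37.7%.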

How the data were processed

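RNA sequencing covered 12 samples, 3 for each of 4 treatments, and 9 of the chromatin libraries were used, 1 for each condition. The submitters' processing notes name MACS2, Bowtie, STAR, SAMtools and Trim Galore, with builds hg19 and GRCh37. Their roles and versions are not stated there. RPKM values were deposited by the authors as 1 value per group, per the file headers, so depth and precision per sample are unknown. The log2 fold changes, p-values and adjusted p-values were deposited by the authors, and no source used here names the test behind them. An adjusted p of 1 was taken as not tested. Peak lists deposited by the authors give the pileup, a signal, the fold enrichment, a ratio over background, and -log10 p and q values, per the file headers. Python 3.11.15, pandas 2.3.3, numpy 2.4.6 and scipy 1.17.1 were used. A gene was called at an authors' adjusted p under 0.05. Standard errors were derived from each log2 fold change and p-value, assuming a two-sided normal test, which gives an upper bound for a p listed as 0. The difference of IL-13 effects was a z test, adjusted by Benjamini-Hochberg. It left out 8 genes for which the tables disagreed by over 0.5 (log2). Promoter windows came from RefSeq. The 16 genes with names turned into dates were counted but are not named.

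Named genes were the 15 largest called rises and 15 largest falls where the deposited log2 and the RPKM ratio lay within 0.5, the 4 largest called members and the largest opposite one of each of 34 lists, 18 genes of the IL-13 and vitamin D responses, the 8 largest differences of effect in each direction, the 8 largest changes in each direction at 100 RPKM or more, and the 5 largest rises and falls near a STAT6 region. Examples from these are printed, and some genes the rule names are not reported here. The members and lists were chosen with earlier results of these data known. The lists were those printed in the plot of gene lists, with markers of squamous epithelium, fibroblasts, leukocytes and endothelium. Alternatives changed the threshold, the RPKM filter, the source of the fold change, the standard errors, the window and the centring.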

Additional observations from a re-analysis of the deposited data

Results flagged for a closer look

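The effect of IL-13 differed with and without vitamin D by the z test of the difference for 210 genes in the upward and 153 in the downward direction. That is 3.21% of genes. Of 18 genes named for their place in the IL-13 and vitamin D responses 4 passed, SERPINB3, SERPINB4, KRT10 and DSG1, and the other 16 genes given here were chosen as the largest called differences. CCL26 and TNFAIP6, whose deposited log2 fold changes disagreed by over 0.5, and IL13RA2 and FLG, under 1 RPKM in both groups, were not in the test. Differences were positive for COL13A1 (1.61 on the log2 scale), DPF3 (1.54), HBEGF (1.33), MEOX1 (1.30), PTCHD4 (1.28), TGM2 (1.27), RASGRP1 (1.22), CEACAM6 (1.06), SERPINB3 (0.68), DSG1 (0.65) and KRT10 (0.60). For DSG1 and KRT10 this was a smaller fall with vitamin D, and CEACAM6 was called lower only without vitamin D. Differences were negative for PRRX2 (-1.35), CYTH4 (-1.15), KRT16P3 (-1.12), KRT16P2 (-1.10), IGFL3 (-0.93), BMP6 (-0.89), CILP (-0.88), CREG2 (-0.86) and SERPINB4 (-0.55). PRRX2 and CYTH4 passed the 1 RPKM filter only through the vitamin D group, and DPF3, MEOX1, PTCHD4 and RASGRP1 only through the combined group. The plain RPKM ratios, set beside these differences after the data were seen, give only -0.12 for CYTH4 and -0.33 for IGFL3, and 1.06 for COL13A1. They give larger sizes for PRRX2 (-1.84), PTCHD4 (1.55) and RASGRP1 (1.56). The signs of the IL-13 effect were opposite, and called in both settings, for 9 genes, HBEGF, KRT16P2 and KRT16P3 among them.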

How the results depend on the processing

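No paired analysis was possible because the RNA columns hold 1 value per group and carry no replicate numbers, and for the same reason no sample could be left out in turn. Counts of called genes were 790 higher and 1050 lower under Bonferroni. At least 1.5-fold higher were 268 genes and lower 344, and a pseudocount of 1 on the RPKM ratio gave 25 genes at least 2-fold lower. At an adjusted p under 0.01 the difference of effects was called for 139 genes upward and 91 downward. The STAT6 share of genes at least 2-fold higher was 5.74% within 1 kb, 57.4% within 50 kb and 13.1% with a -log10 q of 10 or more, and that of genes at least 2-fold lower 0%, 20.8% and 0%, beside 1.18%, 15% and 1.48% of all tested genes. The share of the lower genes was above that over all genes at 50 kb and below it at 10 kb. Its 95% exact intervals, 10.8 to 34.1 at 50 kb and 0.46 to 13 at 10 kb, held the share over all genes each time. Medians from summed pileup were 0.34 (H3K27ac, higher), 0.47 and -0.62 (H3K9ac, higher and lower) and 0.24 (H3K4me3, higher). Uncentred medians were 0.09 and -0.44 for H3K27ac and 0.03 for H3K4me3 at raised genes. Centred medians over all called genes were 0.05 and -0.06 for H3K27ac and 0.03 for H3K4me3 at raised genes. Of 171 named genes 167 were called, and all 167 kept their direction under the 4 other sources of fold change, while 26 moved by over 0.5 under at least one. Depth is unknown, so limits from it could not be set.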
